A study of Mus musculus with 6 samples.

Results

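The 10 genes described here make and load the peptide complexes of major histocompatibility complex (MHC) class I: *H2-K1*, *H2-D1*, *H2-T23*, *Tap1*, *Tap2*, *Tapbp*, *Psmb8*, *Psmb9*, *Psmb10* and *Nlrc5*. They were chosen by symbol from the 25701 genes of a bulk RNA-seq count table, and all 10 were among the 13485 genes that passed a filter on low counts. The table holds 3 MCT2 CO and 3 MCT2 KO samples of cells selected with magnetic beads for CD11b, a surface integrin of myeloid cells, from digested tumors. All mice carried MCT2 loxP/loxP alleles together with a systemic, tamoxifen-inducible mCre-Tg on a C57BL/6 background. The age given is 8 weeks, at the start of tamoxifen and not when tumors were taken, and the paper describes young males only. MCT2 KO mice received tamoxifen and MCT2 CO mice vehicle, so that an effect of tamoxifen or of active Cre cannot be told apart from that of the loss of MCT2. TC1 cells, a mouse lung epithelial tumor line, were injected under the skin of the flank 2 days later, and tumors were taken after 24 days. The labels name lung as the tissue and purified macrophages as the cell type, whereas the methods describe CD11b+ cells of flank tumors. The deletion was not restricted to a cell type, and it concerned the host and not the implanted cells.

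MHC class I molecules display peptides from inside the cell to CD8 T cells. Proteasomes cut proteins into peptides, the transporter TAP carries these into the endoplasmic reticulum, and tapasin holds empty class I molecules next to TAP until a peptide has bound. Interferon-γ induces most genes of this pathway, and it replaces the catalytic subunits of the constitutive proteasome with those of the immunoproteasome. In macrophages and dendritic cells the same machinery also presents peptides from engulfed material, such as dead tumor cells.

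On GRCm38, by GENCODE M21, 8 of the 10 genes lie in the MHC region of chromosome 17, between 33915899 and 36032855, and *Nlrc5* and *Psmb10* lie on chromosome 8. *Psmb9*, *Tap1*, *Psmb8* and *Tap2* follow each other: the spans of *Psmb9* and *Tap1*, which are read in opposite directions, share 212 bases, *Psmb8* begins 495 bases after the end of *Tap1*, and *Tap2* begins 2072 bases after the end of *Psmb8*. Promoter sequences were taken from RefSeq (GRCm38.p6, 250 bases before to 50 bases after a start site) for 8 of the 10 genes, in 9 windows because *H2-K1* has a pair of start sites. The 250 bases before the start are shown for the 3 heavy chain genes and for *Tap1*, because their motifs include those at which class I regulators are known to act. Capitals mark the core of the X2 box or CRE (TGACG), the Y box (CCAAT) and the interferon-stimulated response element, ISRE (GAAA and, after 2 bases of any kind, GAAA again), on either strand.
*H2-K1* (chr17:34000334-34000583, minus strand): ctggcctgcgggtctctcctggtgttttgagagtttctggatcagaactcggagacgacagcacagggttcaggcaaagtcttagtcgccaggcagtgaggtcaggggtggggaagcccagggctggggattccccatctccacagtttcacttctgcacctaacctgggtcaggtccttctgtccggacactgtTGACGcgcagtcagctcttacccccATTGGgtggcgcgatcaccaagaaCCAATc
*H2-D1* (chr17:35262844-35263093, plus strand): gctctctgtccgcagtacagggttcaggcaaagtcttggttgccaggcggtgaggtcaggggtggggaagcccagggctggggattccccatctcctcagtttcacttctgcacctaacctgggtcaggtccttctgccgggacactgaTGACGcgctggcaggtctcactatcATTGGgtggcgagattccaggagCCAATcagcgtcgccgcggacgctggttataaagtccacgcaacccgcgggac
*H2-T23* (chr17:36032702-36032951, minus strand): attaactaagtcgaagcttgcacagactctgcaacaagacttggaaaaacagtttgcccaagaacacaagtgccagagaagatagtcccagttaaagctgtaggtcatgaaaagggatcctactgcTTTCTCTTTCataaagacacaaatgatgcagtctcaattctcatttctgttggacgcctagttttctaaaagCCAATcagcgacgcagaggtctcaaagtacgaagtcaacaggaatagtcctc
*Tap1* (chr17:34187306-34187555, plus strand): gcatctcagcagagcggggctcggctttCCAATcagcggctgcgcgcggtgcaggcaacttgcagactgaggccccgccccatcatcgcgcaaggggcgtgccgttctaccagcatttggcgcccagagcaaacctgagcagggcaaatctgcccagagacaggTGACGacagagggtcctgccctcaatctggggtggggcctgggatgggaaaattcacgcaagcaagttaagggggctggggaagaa
*H2-K1* and *H2-D1* carried TGACG followed, after 20 other bases, by ATTGG, a Y box on the opposite strand. In *H2-K1* the TGACG began 55 bases before the start site shown and in *H2-D1* 101 bases before it. These offsets hold for the RefSeq start sites. By GENCODE M21 the span of *H2-D1* begins earlier, at 35262730, so the stretch shown lies inside it, and that of *H2-T23* ends at 36032855, within the stretch shown. The spacing of TGACG and ATTGG was searched for after the promoters had been seen, and it was found in 31 of 32851 promoters (0.0944%). *H2-T23* carried the ISRE on the strand opposite to the one shown, beginning 124 bases before the start site, and it was the only one of the 9 windows with these exact letters, against 3.44% of all promoters. Other forms of the element were not searched for, so a window without these letters is not read as lacking one. A Y box was present in 7 of the 9 windows and in 37.4% of all promoters, and TGACG in 5 windows and in 20.8% of all promoters. GGGCGG, the GC box, was in 3 windows and in 35.7% of all promoters. The windows of *Tap1* and *Psmb9* share 275 bases, since the genes diverge from a common promoter, so a motif there is counted in both. The windows of *H2-K1* overlap as well. The counts of windows are therefore higher than the number of separate sites, and the windows are not independent draws to set against the share of all promoters. A match of letters is a description, and factor binding was not measured.

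No member differed between MCT2 KO and MCT2 CO by edgeR's quasi-likelihood test: 0 of the 10 met both thresholds, an adjusted p no higher than 0.05 and a log2 fold change of 0.58 or more in either direction, against 0% of all genes tested. DESeq2, with every gene that had a count included, also called 0 of the 10, against 0.448% of genes. At an unadjusted p under 0.05 there were 0 members, against 9.37% of all genes. In all 10 the values of the groups overlapped, whereas the groups did not overlap in 15.8% of all genes. The fitted log2 fold change was above 0 for 7 members and below 0 for 3, against 50.1% of all genes above 0, and its median was 0.032 over the members and 0.00037 over all genes. Values are given as CPM, counts scaled to library size after TMM normalization, for single samples in the order of replicates 1, 2 and 3 and otherwise as mean ± SD with n = 3. The study names biological replicates for the single-nucleus data of the same tumors, while for these bulk samples the sources give replicates without tying each to a mouse, so p-values measure the spread between these samples.

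The targeted gene was lower in the samples labelled MCT2 KO, short of a call. *Slc16a7*, which encodes MCT2, was counted 481, 287 and 298 times in MCT2 CO and 196, 162 and 133 times in MCT2 KO, without overlap, and its adjusted p was 0.370 in edgeR's test. Total counts per sample ranged from 24863611 to 31713704. Macrophage markers were abundant in every sample, at a summed 3731 to 4839 CPM in MCT2 CO and 3904 to 6680 CPM in MCT2 KO over 9 listed genes, of which *Itgam* (CD11b), a gene inside the span of another listed gene, was at or near 0. Fibroblast markers were present too, at 2045 to 3355 CPM in MCT2 CO and 1708 to 1819 CPM in MCT2 KO over 7 genes, and these ranges did not overlap. Epithelial markers summed to at most 33.5 CPM, in MCT2 KO replicate 1, of which *Cdh1* made up 32.0 CPM. The paper states that telling TC1 cells from host mesenchymal or stromal cells would need further analyses. The fibroblast markers are therefore not read as host cells only. In such bulk samples fewer cells of a type and less RNA per cell cannot be told apart.

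The heavy chains bind the peptide and are shown to the T cell. *H2-D1* (ENSMUSG00000073411) and *H2-K1* (ENSMUSG00000061232) encode the classical class I heavy chains of this strain. *H2-K1* measured 2507, 2880 and 2204 CPM in MCT2 CO and 2610, 2042 and 2862 CPM in MCT2 KO. The highest and the second highest value came from different groups, and the lowest was MCT2 KO replicate 2. Its means were 2531 ± 339 CPM in MCT2 CO and 2505 ± 420 CPM in MCT2 KO, with a log2 fold change of -0.015 (95% interval -0.39 to 0.36; edgeR's adjusted p = 0.984). *H2-D1* measured 2774, 2994 and 2442 CPM in MCT2 CO and 2932, 2267 and 3164 CPM in MCT2 KO. For *H2-D1*, MCT2 KO held both the highest and the lowest sample, replicates 3 and 2. The means were 2737 ± 278 and 2788 ± 466 CPM, with a log2 fold change of 0.027 (95% interval -0.33 to 0.38; edgeR's adjusted p = 0.966). Together, *H2-K1* and *H2-D1* took 0.474% to 0.587% of all counts in MCT2 CO samples and 0.443% to 0.598% in MCT2 KO samples. The log2 ratio of *H2-K1* to *H2-D1* CPM within a sample stayed between -0.17 and -0.056 over the 6 samples.

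*H2-T23* (ENSMUSG00000067212) encodes Qa-1, a nonclassical heavy chain that presents leader peptides of other class I molecules to receptors of natural killer cells. It measured 153, 214 and 149 CPM in MCT2 CO and 224, 107 and 237 CPM in MCT2 KO. MCT2 KO replicates 1 and 3 were the highest of the 6 samples and MCT2 KO replicate 2 the lowest. With means of 172 ± 36.5 and 190 ± 71.4 CPM and a 2.21-fold range from the lowest to the highest sample, it varied most of the 10 genes. The log2 fold change was 0.14 with a 95% interval of -0.52 to 0.80 (edgeR's adjusted p = 0.902), an interval that reaches past the call threshold. Without MCT2 KO replicate 2 the log2 fold change of *H2-T23* was 0.43 and the groups no longer overlapped, with no call. Groups separate more easily with a sample left out, so this is a description. Near-identical paralogs can share reads with the heavy chains: of all stretches of 50 bases in their transcripts, 9.63% in *H2-K1*, 12.8% in *H2-D1* and 14.5% in *H2-T23* occurred in another gene too. For stretches of 100 bases the shares were 0.957%, 3.59% and 3.15%, the read length is not given in the sources used here, and neither is the handling of such reads in the counting.

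**Figure D1:**
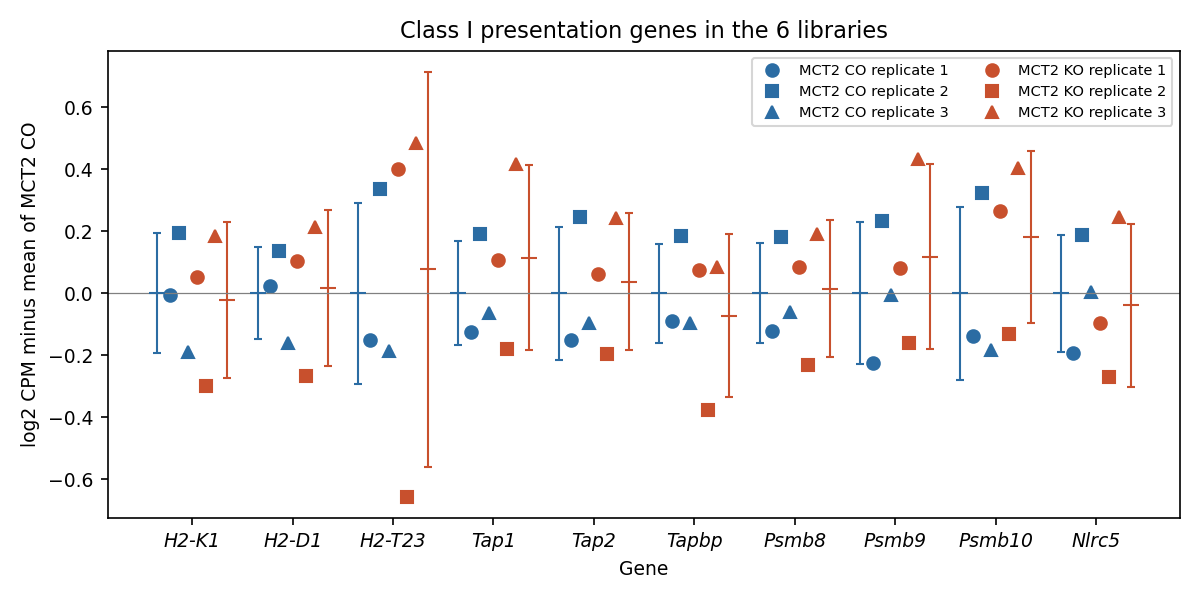
Each point is 1 library's log2 CPM minus the mean of the 3 MCT2 CO libraries for each of the 10 genes (horizontal axis), in blue for MCT2 CO and orange for MCT2 KO, with the shape giving the replicate; the bars beside the points are mean ± SD. The groups overlapped for every gene, and MCT2 KO replicate 2 was the lowest library for 8 of the 10.

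*Tap1* and *Tap2* pair to form the peptide transporter. *Tap1* (ENSMUSG00000037321) measured 249, 311 and 260 CPM in MCT2 CO and 293, 240 and 363 CPM in MCT2 KO. MCT2 KO replicate 3 was the highest sample and MCT2 KO replicate 2 the lowest, and replicate 1 lay among the MCT2 CO values. Its means were 274 ± 32.6 and 299 ± 61.8 CPM, a log2 fold change of 0.13 (95% interval -0.24 to 0.49; edgeR's adjusted p = 0.825). *Tap2* (ENSMUSG00000024339) measured 180, 236 and 187 CPM in MCT2 CO and 208, 174 and 236 CPM in MCT2 KO. MCT2 CO replicate 2 and MCT2 KO replicate 3 were level at the top. Its means of 201 ± 31.0 and 206 ± 31.1 CPM gave a log2 fold change of 0.037 (95% interval -0.30 to 0.37; edgeR's adjusted p = 0.952). *Tapbp* (ENSMUSG00000024308), the gene of tapasin, measured 468, 566 and 466 CPM in MCT2 CO and 525, 383 and 528 CPM in MCT2 KO. Replicates 1 and 3 of MCT2 KO were nearly level, and replicate 2 was the lowest of all samples. The means of *Tapbp* were 500 ± 57.2 and 479 ± 82.5 CPM, with a log2 fold change of -0.063 (95% interval -0.40 to 0.28; edgeR's adjusted p = 0.915). Of the exons of *Tap1* and *Tapbp*, 3.87% and 4.11% lie inside the span of another listed gene, *Psmb9* and *Zbtb22*.

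The immunoproteasome subunits are the inducible counterparts of 3 constitutive catalytic subunits. *Psmb8* (ENSMUSG00000024338) measured 156, 193 and 163 CPM in MCT2 CO and 180, 145 and 194 CPM in MCT2 KO. Its range over the 6 samples, 1.34-fold, was the narrowest of the 10 genes, and its highest and lowest samples were both MCT2 KO. The log2 fold change of *Psmb8* was 0.020 (95% interval -0.28 to 0.32; edgeR's adjusted p = 0.970). *Psmb9* (ENSMUSG00000096727) measured 69.6, 95.6 and 81.0 CPM in MCT2 CO and 86.0, 72.9 and 110 CPM in MCT2 KO, and here MCT2 CO replicate 1 was the lowest. Its log2 fold change was 0.13 (95% interval -0.26 to 0.51; edgeR's adjusted p = 0.840). *Psmb10* (ENSMUSG00000031897) measured 59.6, 82.1 and 57.8 CPM in MCT2 CO and 78.9, 60.0 and 87.0 CPM in MCT2 KO. MCT2 CO replicates 1 and 3 and MCT2 KO replicate 2 lay at the low end, and MCT2 KO replicates 1 and 3 lay with MCT2 CO replicate 2 at the high end. The means of *Psmb10*, 66.5 ± 13.5 and 75.3 ± 13.8 CPM, gave the highest log2 fold change of the 10 genes, 0.18 (95% interval -0.23 to 0.58; edgeR's adjusted p = 0.775).

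The balance of inducible to constitutive subunits was compared within each sample, which removes the scaling between libraries. The log2 ratio of *Psmb8* to *Psmb5*, the subunits with chymotrypsin-like activity, was 2.41, 2.35 and 2.17 in MCT2 CO and 2.48, 2.08 and 2.60 in MCT2 KO. The MCT2 KO values enclosed those of MCT2 CO, and the mean difference was 0.076 (exact permutation test, two-sided, p = 0.7). The log2 ratio of *Psmb9* to *Psmb6* was -0.74, -0.46 and -0.66 in MCT2 CO and -0.72, -1.01 and -0.34 in MCT2 KO, a difference of -0.072 (exact permutation test, two-sided, p = 0.9). For *Psmb10* to *Psmb7* it was -1.08, -0.44 and -1.24 in MCT2 CO and -0.56, -1.14 and -0.48 in MCT2 KO, a difference of 0.19 (exact permutation test, two-sided, p = 0.8). With 3 samples against 3 the smallest p this test can give is 0.1. In all 3 ratios MCT2 KO replicate 3 was above MCT2 KO replicate 2.

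**Figure D2:**
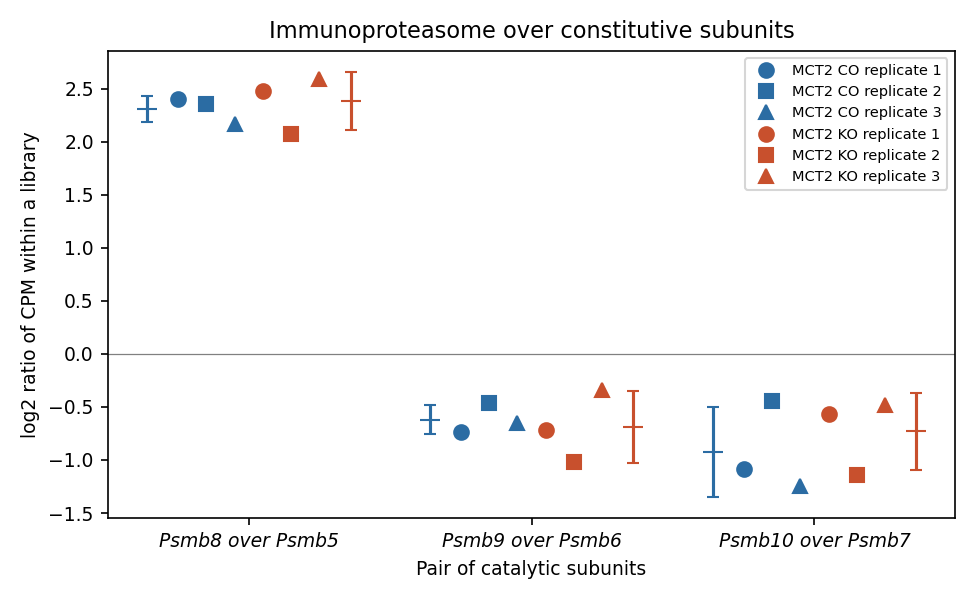
The vertical axis is the log2 ratio of CPM of an immunoproteasome subunit to its constitutive counterpart within a library, for the 3 pairs on the horizontal axis; points are libraries, and bars are mean ± SD of each group (n = 3). The groups overlapped in every pair, with mean differences of 0.076, -0.072 and 0.19.

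*Nlrc5* (ENSMUSG00000074151) encodes a transactivator that joins factors bound to the X and Y boxes of class I promoters such as those of *H2-K1* and *H2-D1* shown above. It measured 239, 311 and 274 CPM in MCT2 CO and 255, 227 and 324 CPM in MCT2 KO. The MCT2 KO samples again held both ends of the range. Its means were 275 ± 35.9 and 269 ± 50.1 CPM, with a log2 fold change of -0.032 (95% interval -0.38 to 0.32; edgeR's adjusted p = 0.961). For 8 of the 10 genes the 95% interval of the log2 fold change lay wholly between -0.58 and 0.58. The exceptions were *H2-T23*, with an upper end of 0.80, and *Psmb10*, whose upper end was just past the threshold. Counts of the 10 genes lay between 1536 and 83157 in a library, so that counting error was small beside the differences between libraries.

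**Figure D3:**
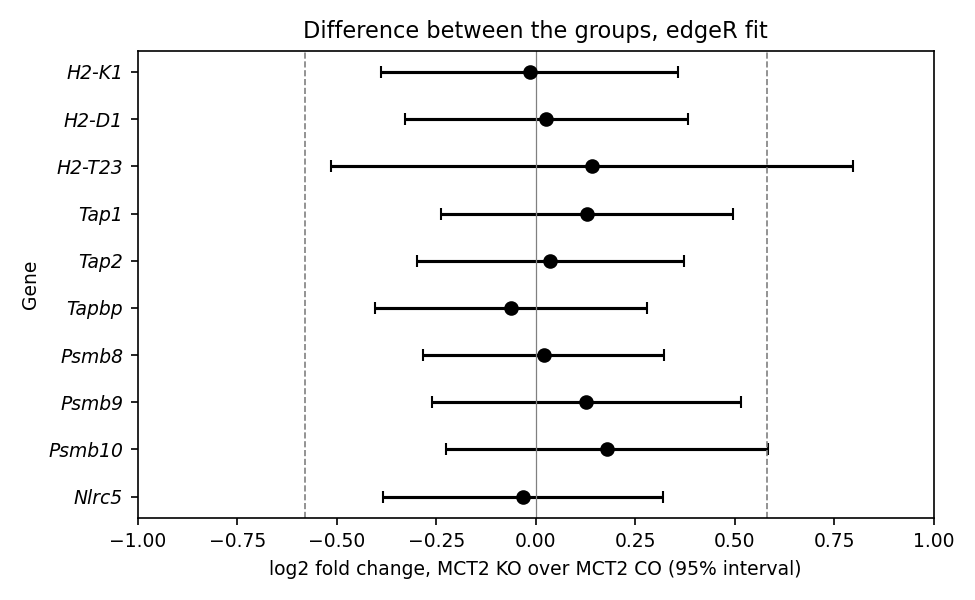
Points are log2 fold changes of MCT2 KO over MCT2 CO from edgeR's fit for each gene (vertical axis), bars are 95% intervals, and dashed lines mark the threshold of 0.58 in both directions. All 10 intervals include 0, and that of *H2-T23* is the widest, from -0.52 to 0.80.

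Levels of different genes were compared per length, as CPM per kilobase of exon outside the spans of other listed genes. The deposited lengths are whole gene spans, so reads from introns may be included, which would raise genes with long introns more. In MCT2 CO, *H2-D1* came first at 1061 ± 108 and *H2-K1* next at 861 ± 115 CPM per kilobase, with *H2-D1* above *H2-K1* in all 6 samples although their ranges overlapped. *Tapbp* followed at 144 ± 16.5 CPM per kilobase, below every value of *H2-K1* and above every value of *H2-T23*. *H2-T23* (59.5 ± 12.6), *Tap2* (53.1 ± 8.19), *Tap1* (52.0 ± 6.20) and *Psmb8* (50.4 ± 5.76 CPM per kilobase) did not differ beyond their spread, and *Tap2* was above *Tap1* in 3 of the 6 samples, though *Tap1* was above *Psmb8* in all 6. *Psmb10* (39.0 ± 7.93), *Nlrc5* (32.3 ± 4.23) and *Psmb9* (23.8 ± 3.77 CPM per kilobase) came last, with ranges that overlapped from each gene to the next. In MCT2 KO the means ran from 1081 ± 181 CPM per kilobase for *H2-D1* to 26.0 ± 5.45 for *Psmb9*.

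The 10 genes differed between samples much more than between groups. The difference between the groups held from 0.232% of the variance of log2 CPM in *Psmb8* to 13.5% in *Psmb10*, with a median of 1.08%, against a median of 17.4% over all genes tested. The mean log2 CPM of the 10 genes, relative to that of MCT2 CO, was -0.12, 0.22 and -0.10 in MCT2 CO and 0.11, -0.28 and 0.29 in MCT2 KO. MCT2 KO replicate 3 was the highest sample for 7 of the 10 genes and MCT2 CO replicate 2 for the other 3. MCT2 KO replicate 2 was the lowest for 8, all but *Psmb9* and *Psmb10*. As a description over 6 libraries, Pearson's r of log2 CPM was above 0 in 45 of 45 pairs of the genes, with a median of 0.89, and Spearman's rho had a median of 0.89. The median r was 0.92 on deviations from the group means. Without MCT2 KO replicates 2 and 3, the samples farthest out, all 45 were still above 0, with a median of 0.86 and a lowest value of 0.19. The pairs most alike were *H2-K1* with *H2-D1* (r = 0.98), *Tap2* with its neighbour *Psmb8* (r = 0.98) and *Tap1* with *Psmb9* (r = 0.97), which share a promoter. The least alike were *H2-D1* and *Nlrc5* (r = 0.71). The points of each pair share their library, its scaling and its makeup of cells. The 45 pairs reuse the same 10 genes and are not independent, and no values for other sets of genes were set beside them. Reads in the bases that *Tap1* and *Psmb9* share were likely counted for neither, since *B2m*, wholly inside another span, had 0 counts.

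The summed T-cell markers moved with this pattern, and the other marker lists did so in part or not at all. Over 8 T-cell markers the summed level was 43.6, 66.5 and 46.1 CPM in MCT2 CO and 59.0, 13.6 and 91.1 CPM in MCT2 KO, which is the same order of samples as the mean of the class I genes. Of the 10 marker lists, only the T-cell list had that order, and it was singled out after the values were seen. *Cd8a*, a coreceptor of cytotoxic T cells, measured 6.24, 12.8 and 7.15 CPM in MCT2 CO and 8.89, 0.952 and 26.6 CPM in MCT2 KO. *Cd4* had another order, at 15.1, 13.5 and 13.8 CPM in MCT2 CO and 20.6, 5.31 and 8.19 CPM in MCT2 KO. Its value in MCT2 KO replicate 3 lay under every MCT2 CO value. All 8 T-cell markers were lowest in MCT2 KO replicate 2, and 7 were highest in MCT2 KO replicate 3. MCT2 KO replicate 2 was also lowest in the summed markers of B cells (23.4 CPM, against 79.7 to 109 CPM in the other samples), with 6 of 7 genes lowest there, and of dendritic cells (30.4 against 52.4 to 69.1 CPM), with 6 of 8. Its neutrophil sum was the lowest too (68.6 against 83.0 to 183 CPM), but most of it was *Csf3r* (41.1 CPM), and 6 of the 8 neutrophil markers were above every MCT2 CO sample in this replicate. In these 6, all MCT2 KO samples lay above all MCT2 CO samples, against 7.07% of all genes. Lying wholly below MCT2 CO, against 8.77% of all genes, were 3 of 6 tested B-cell, 3 of 7 natural killer-cell, 3 of 7 fibroblast and 1 of 8 dendritic-cell markers. Of all these markers edgeR's test called 0. The endothelial sum of MCT2 KO replicate 2 (81.8 against 92.6 to 135 CPM) was likewise mixed, with 2 of 5 markers lowest and 2 highest in this replicate. Markers of monocytes, at 294 to 388 CPM over the 6 samples, and of natural killer cells, at 39.3 to 89.5 CPM, had other orders. Macrophage markers followed another order, with MCT2 KO replicate 1 the highest at 6680 CPM and MCT2 CO replicate 3 the lowest at 3731 CPM. On principal components of the 500 most variable genes, MCT2 KO replicate 2 stood apart on the second component at -22.5, with the other samples between -3.06 and 9.26, and MCT2 CO replicate 3 stood apart on the first at -22.7, with the other samples between -3.54 and 11.8. The part of these cells in the class I values was not tested.

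**Figure D4:**
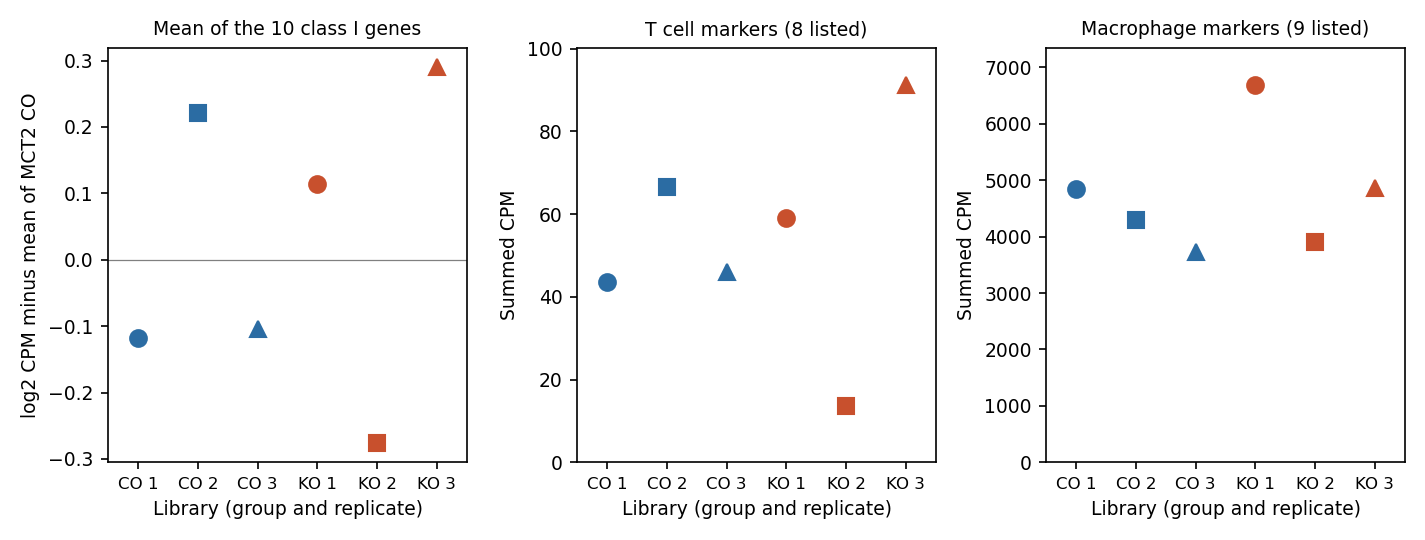
Each point is 1 library, with MCT2 CO in blue and MCT2 KO in orange: left, the mean log2 CPM of the 10 class I genes relative to MCT2 CO; middle and right, the summed CPM of 8 T-cell and 9 macrophage markers. The libraries have the same order in the left and middle panels, from MCT2 KO replicate 2 to MCT2 KO replicate 3, and another order in the right panel.

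The genes whose log2 CPM was most like the mean of the 10, among 9518 other genes at 10 CPM or more, were *Parp10* (r = 0.98 over 6 samples), *Hdc*, *Trafd1*, *Gtpbp2*, *Tnfsf10*, *Adar*, *Cnp*, *Zswim8*, *Sp140l2* and *Oas3* (r = 0.97). With 9518 genes and only 6 samples, such high r can arise for some genes without any relation. The list is therefore a description, and shared regulation was not tested. *Parp10* measured 68.1, 93.2 and 68.8 CPM in MCT2 CO and 78.2, 60.9 and 99.4 CPM in MCT2 KO, with its highest and lowest values in the same samples as most of the class I genes. *Oas3*, an oligoadenylate synthetase of the antiviral response, measured 69.6, 96.9 and 78.3 CPM in MCT2 CO and 87.9, 52.1 and 112 CPM in MCT2 KO. Edge cases aside, none of these 10 genes could be picked with a large group difference, since the members' mean itself differed by 0.043 (MCT2 KO minus MCT2 CO). Their adjusted p in edgeR's test, at least 0.854, follows from that choice and is not a separate result.

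Other genes of the class I pathway were taken from 6 lists of 61 genes, of which 55 were tested. Of these, 33 had a log2 fold change above 0 and 22 below 0, with a median of 0.043, and edgeR's test called 0. At an unadjusted p under 0.05 there were 2 of the 55, *Psmb6* and *Hspa5*, against the 9.37% of all genes. The values of the groups did not overlap for 1 gene that was higher in MCT2 KO, *Psmb6*, against 7.07% of all genes, and for 3 that were lower, *Hspa5*, *Rfx5* and *Nfyc*, against 8.77%.

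The light chain and other heavy chains came to 15 genes, of which 10 were tested, 6 with a log2 fold change above 0 and 4 below 0, and 0 called. *B2m*, the light chain common to class I molecules, was listed at 0 counts in all 6 samples, and its exons lie wholly inside the span of *Patl2*. The same held for *H2-T10* inside *H2-T25* and for *Tapbpl*, a relative of tapasin, inside *Vamp1*. These 3 zeros are not read as silence, and the light chain could not be measured here. *H2-Q1*, *H2-Q2* and *H2-T3*, which overlap no listed span, were at or near 0 counts in both groups and were not tested. Among the genes tested, the lowest log2 fold change was that of *H2-Q7*, a nonclassical Qa-2 gene, at -0.14 (standard error 0.18), with 75.1 ± 15.6 CPM in MCT2 CO and 68.2 ± 12.7 CPM in MCT2 KO. The highest was that of *H2-Q10*, at 0.55 (standard error 0.45), a gene with under 1 CPM on average in both groups.

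**Figure D5:**
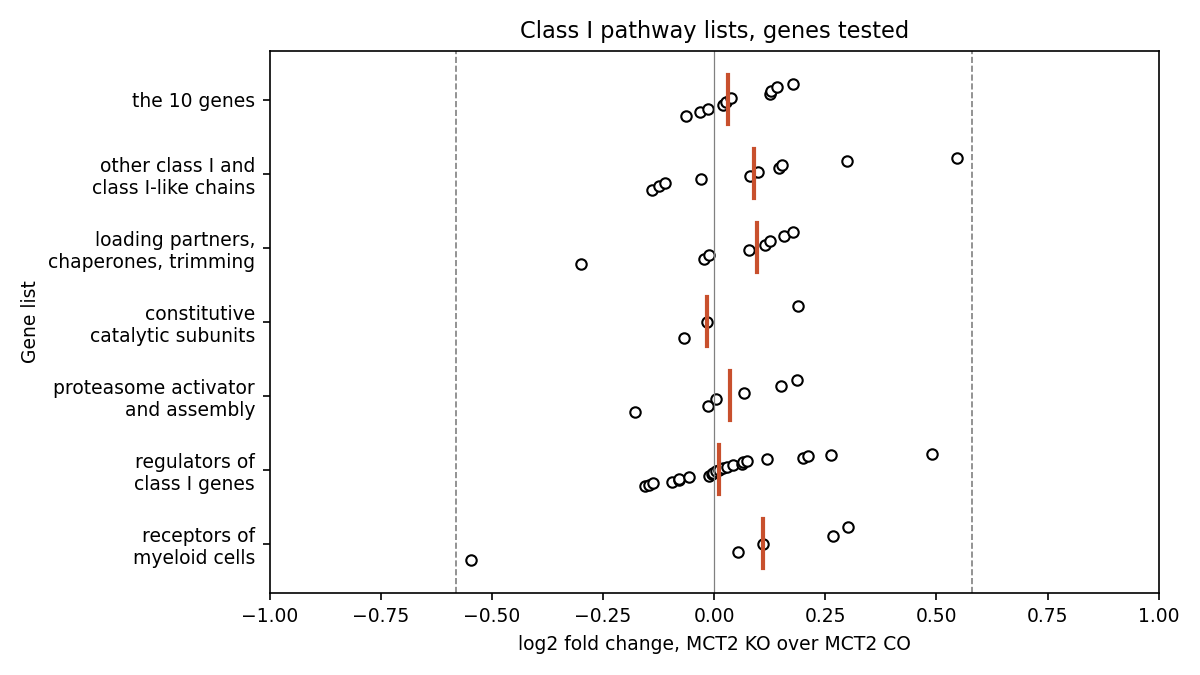
Circles are log2 fold changes of MCT2 KO over MCT2 CO for the tested genes of each list (vertical axis), orange bars are list medians, and dashed lines mark 0.58 in both directions. All circles lie inside the threshold lines, and the median of the 10 genes is 0.032.

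Loading partners, chaperones and trimming enzymes came to 9 genes, with 8 tested, 5 above 0 and 3 below 0. *Hspa5*, the endoplasmic reticulum chaperone BiP, measured 2554, 2883 and 2950 CPM in MCT2 CO and 2254, 2362 and 2199 CPM in MCT2 KO. All MCT2 KO values lay under all MCT2 CO values. The log2 fold change was -0.30 with a standard error of 0.11 (edgeR's adjusted p = 0.491). *Erap1*, an aminopeptidase that trims peptides to length, had the highest log2 fold change of this list, 0.18 (standard error 0.12), with 11.5% of its exons inside another span.

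Of the 3 constitutive catalytic subunits, *Psmb6* measured 116, 132 and 128 CPM in MCT2 CO and 142, 147 and 139 CPM in MCT2 KO. These values did not overlap, and the log2 fold change was 0.19 (standard error 0.081; edgeR's adjusted p = 0.533). *Psmb5* was at 34.5 ± 4.40 CPM in MCT2 CO and 32.9 ± 1.21 CPM in MCT2 KO, and *Psmb7* at 125 ± 12.6 and 124 ± 8.15 CPM. The interferon-inducible proteasome activator genes *Psme1* (119 ± 11.6 and 135 ± 17.4 CPM) and *Psme2* (71.7, 83.8 and 77.7 CPM in MCT2 CO and 80.6, 79.3 and 98.9 CPM in MCT2 KO) had log2 fold changes of 0.19 (standard error 0.12) and 0.15 (standard error 0.11), with overlapping groups. They stood in a list of 6 activator and assembly genes with 4 above 0 and 2 below 0, the lowest being *Psmg1* at -0.18 (standard error 0.17), a chaperone of proteasome assembly.

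Regulators of class I genes came to 23, all tested, 13 with a log2 fold change above 0 and 10 below 0. *Irf1*, an interferon-induced transcription factor, measured 110, 195 and 118 CPM in MCT2 CO and 145, 121 and 328 CPM in MCT2 KO. MCT2 KO replicate 3 was far above the other samples, and MCT2 CO replicate 2 came next. The log2 fold change of *Irf1*, 0.49, was the highest of the list and had a standard error of 0.38 (edgeR's adjusted p = 0.716). *Rfx5*, a subunit of the complex that binds the X box, measured 70.4, 69.6 and 70.0 CPM in MCT2 CO and 63.5, 58.0 and 67.2 CPM in MCT2 KO, without overlap. The log2 fold change of *Rfx5* was -0.16 (standard error 0.082; edgeR's adjusted p = 0.590). *Nfyc*, a subunit of the factor that binds the Y box, was at 52.2 ± 4.65 CPM in MCT2 CO and 47.2 ± 1.77 CPM in MCT2 KO, with a log2 fold change of -0.15 (standard error 0.090; edgeR's adjusted p = 0.645).

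The last list held 5 inhibitory or paired receptors of myeloid cells, among which only *Pirb* encodes a well-known receptor of class I molecules. Of these, 4 had a log2 fold change above 0 and 1 below 0, and 0 were called. *Pirb* measured 123, 118 and 92.5 CPM in MCT2 CO and 158, 88.7 and 165 CPM in MCT2 KO, with a log2 fold change of 0.30 (standard error 0.23; edgeR's adjusted p = 0.706). *Lilrb4a* had the lowest value, -0.55 (standard error 0.24; edgeR's adjusted p = 0.539), at 4.80 ± 0.519 CPM in MCT2 CO and 3.29 ± 1.02 CPM in MCT2 KO, and 98.9% of its exons lie inside other spans.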

How the data were processed

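The authors screened reads of TruSeq Stranded poly-A libraries with FastQC 0.12.0 and MultiQC 1.28. Alignment was to GRCm38 by STAR 2.7.11b, and the authors deposited raw counts per gene from Subread featureCounts 2.1.1, without normalization or pooling. The annotation, feature type, strand setting and read length are not given in the sources used here. Lengths in the table equal whole gene spans. Its positions matched GENCODE M21 on GRCm38 for 2.20% of the 25594 shared identifiers, against 98.1% for the span length, so positions printed are those of GENCODE M21, found by identifier.

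These counts went unchanged into edgeR 4.0.16 (R 4.3.3): filterByExpr (minimum count 10, minimum total 15), TMM, quasi-likelihood test without covariates, and Benjamini-Hochberg adjustment over 13485 genes. Standard errors and 95% intervals were derived from the fold change and its F statistic. DESeq2 1.42.0 and limma 3.58.1 served as alternatives, and Python 3.11.15 handled annotation. Correlations and principal components used log2 CPM with a prior count of 2. The procedure was tested on simulated counts. Groups came from sample titles. Same-numbered samples did not deviate together, so the replicate number was used only in an alternative. Replicates within a group differed by far more than sampling noise (chi-square per degree of freedom 15.7 to 79.2).

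The named genes were all 10 members; the targeted gene; *B2m*, *Psmb5*, *Psmb6*, *Psmb7*, *Psme1*, *Psme2* and *Irf1*, with a further gene that is not reported here; the gene with the highest and the lowest log2 fold change of each pathway list; and the 10 genes most correlated with the members' mean. *Nfyc*, *H2-T10*, *Tapbpl*, *H2-Q1*, *H2-Q2*, *H2-T3*, *Itgam*, *Csf3r*, *Cd8a*, *Cd4*, *Cdh1* and *H2-M2* were named after their values were seen. The members and all lists were chosen with earlier results of these data known. Sequences are those of RefSeq on GRCm38.p6. Alternatives covered the test, normalization, filter, thresholds, replicate block and each sample left out.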

Additional observations from a re-analysis of the deposited data

How the results depend on the processing

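No member and no other pathway gene was called in any of the 17 alternatives. The members' adjusted p was never below 0.407, the value of *H2-T23* in one of them. Over all genes the number called was 0 in edgeR's test, 79 by DESeq2 on the genes kept, 83 by DESeq2 on all genes with any count, and 2 in edgeR without a filter on low counts. With each sample left out in turn the number of all genes called ran from 0 to 2, the 2 without MCT2 KO replicate 2. The number of members whose groups did not overlap ran from 0 to 1, with *Psmb10* without MCT2 CO replicate 2 and *H2-T23* without MCT2 KO replicate 2. Groups separate more easily when a sample is left out, and the share over all genes is not given for these settings. Nothing is therefore read from either gene. The members' median log2 fold change ran from -0.063 without MCT2 KO replicate 3 to 0.15 without MCT2 KO replicate 2. The sign of single members depended on the samples. As samples were dropped one by one, the fitted log2 fold change ran from -0.11 to 0.11 for *H2-K1*, from -0.066 to 0.16 for *H2-D1*, from -0.046 to 0.43 for *H2-T23*, from -0.029 to 0.26 for *Tap1*, from -0.064 to 0.17 for *Tap2*, from -0.13 to 0.075 for *Tapbp*, from -0.063 to 0.14 for *Psmb8*, from -0.039 to 0.26 for *Psmb9* and from -0.18 to 0.079 for *Nlrc5*. *Psmb10* stayed above 0, from 0.069 to 0.36. The log2 ratio differences ran from -0.029 to 0.23 for *Psmb8* over *Psmb5*, from -0.25 to 0.090 for *Psmb9* over *Psmb6* and from 0.034 to 0.43 for *Psmb10* over *Psmb7*. With scaling by library size only, the log2 fold change of *Psmb8* was -0.0030. Scaling does not enter a ratio within a sample, so these were recomputed only with a prior count, with the block and without each sample.

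Same-numbered samples of the groups share only a number: the correlations of their deviations from the group means were 0.216, -0.247 and -0.161. With the replicate block, the members' median log2 fold change was 0.028 and 0 genes were called.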

Other observations

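*H2-M2*, a class I-like heavy chain gene of the pathway lists, varied more between samples than any member. Its counts were 501, 181 and 28 in MCT2 CO and 581, 44 and 129 in MCT2 KO, or 8.24 ± 7.91 and 10.3 ± 12.3 CPM (SD, n = 3). Its order of samples was another than that of the 10 class I genes, with MCT2 KO replicate 1 and MCT2 CO replicate 1 at the top.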
